A study of Triticum aestivum with 18 samples.

Results

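Transcript assembly from RNA-seq reads of germinating wheat seeds gave 3649 loci that have an assembled identifier and no reference gene identifier (TraesCS). The 3358 unnamed loci described here were those with an FPKM of at least 1 in 3 or more of the 18 libraries (FPKM, fragments scaled for exon length and for the mapped fragments of a library). They made up 92.0% of the unnamed assembled loci and 6.63% of the 50656 loci of the table that reached the same level. The other 291 unnamed loci stayed below it, and 19 of these were at 0 in every library. The rule used the FPKM values, so levels are given as a description. Just inside the limit, the third-highest FPKM was 1.005 for MSTRG.37344, 1.006 for MSTRG.18731 and 1.007 for MSTRG.28920. Just outside, it was 0.999 for MSTRG.3057, 0.990 for MSTRG.6794 and 0.984 for MSTRG.5285.

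Seeds of the varieties Zhoumai22 (ZM22), Bainong207 (BN207) and Bainong607 (BN607) were studied, of which the study ranked BN607 as the most and ZM22 as the least tolerant of waterlogging. In the W72 groups seeds lay under 10 cm of water for 72 h and then germinated for 72 h. In the C72 (control) groups they imbibed for 24 h and germinated for 72 h. All groups grew at 25 °C and 75% relative humidity with 16 h of light and 8 h of dark. By the methods, the 72 h under water came before this, at a lower constant temperature and in the dark. Time from first wetting to sampling was also longer in W72 than in C72. Effects of waterlogging, of this dark and cooler period and of seed age cannot be told apart in W72 against C72. Each of the 6 groups had 3 libraries. The labels do not say whether these came from separate seed lots, so p-values measure the spread between libraries. By the methods the radicle and coleoptile were removed, so each library is a mixture of grain tissues. In such bulk samples a lower level can mean fewer cells of a type or less RNA per cell, which cannot be told apart.

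Bread wheat is a hexaploid whose A, B and D subgenomes carry related copies of most genes. Its reference sequence comes from the variety Chinese Spring, and genes were predicted on that sequence. An assembler such as StringTie joins the reads of an experiment into transcripts wherever they align, so it can place loci where the annotation has none. These may be long non-coding RNAs, unannotated genes, extensions of known genes, transposon transcripts or stray fragments. None of the unnamed loci had a description, a GO or KEGG term or an EC number in the table, so none can be given a function here. No reference sequence was used, and positions are those of the table on IWGSC RefSeq v1.0.

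Summed counts per library ran from 68754539 to 107712576. Unnamed loci took 4.65 to 5.81% of the summed FPKM of a library, and 2325 to 2643 of them were at 1 FPKM or more. Median log2(FPKM + 1) of marker lists chosen from gene descriptions spread widely between libraries, from 0.905 to 4.42 for cell division and from 3.17 to 10.3 for alpha-amylase, the starch-degrading enzyme of the aleurone and scutellum. Photosynthesis genes were between 0.0774 and 2.32. The library W72_BN207 replicate 1 went against its label. It detected 0 of the 80 unnamed loci that every other BN207 library expressed and BN607 lacked, and all 77 that BN607 expressed and the other BN207 libraries lacked. W72_BN207 replicate 1 is used below as the name that its label gives it, and the results that rest on it are given with and without it.

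Unnamed loci were spread over all chromosomes and were fewest in number in the D subgenome. Per Mb, A was the sparsest, with 0.193 unnamed loci beside 0.239 in B and 0.210 in D. Subgenome A held 951 of them (28.3%), B 1236 (36.8%) and D 828 (24.7%), where the named tested loci were split 32.8%, 32.9% and 33.2%. Another 343 (10.2%) lay on the unplaced scaffolds (Un), which held 1.13% of the named loci. On Un, 39.1% of all tested loci were unnamed. On the assigned chromosomes the number ran from 71 on 4D to 192 on 2B, and the unnamed share of tested loci from 3.58% on 4D to 8.52% on 6B. In every homoeologous group the B chromosome had more unnamed loci than its A and D counterparts. Per Mb this did not hold for 2D (0.241, beside 0.240 on 2B), 5D (0.237, beside 0.231 on 5B) and 7D (0.243, beside 0.240 on 7B). The outermost 10% at each chromosome end held 34.1% of the unnamed loci, against 28.3% of assembled loci with a TraesCS name and 29.1% of TraesCS loci.

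**Figure D1:**
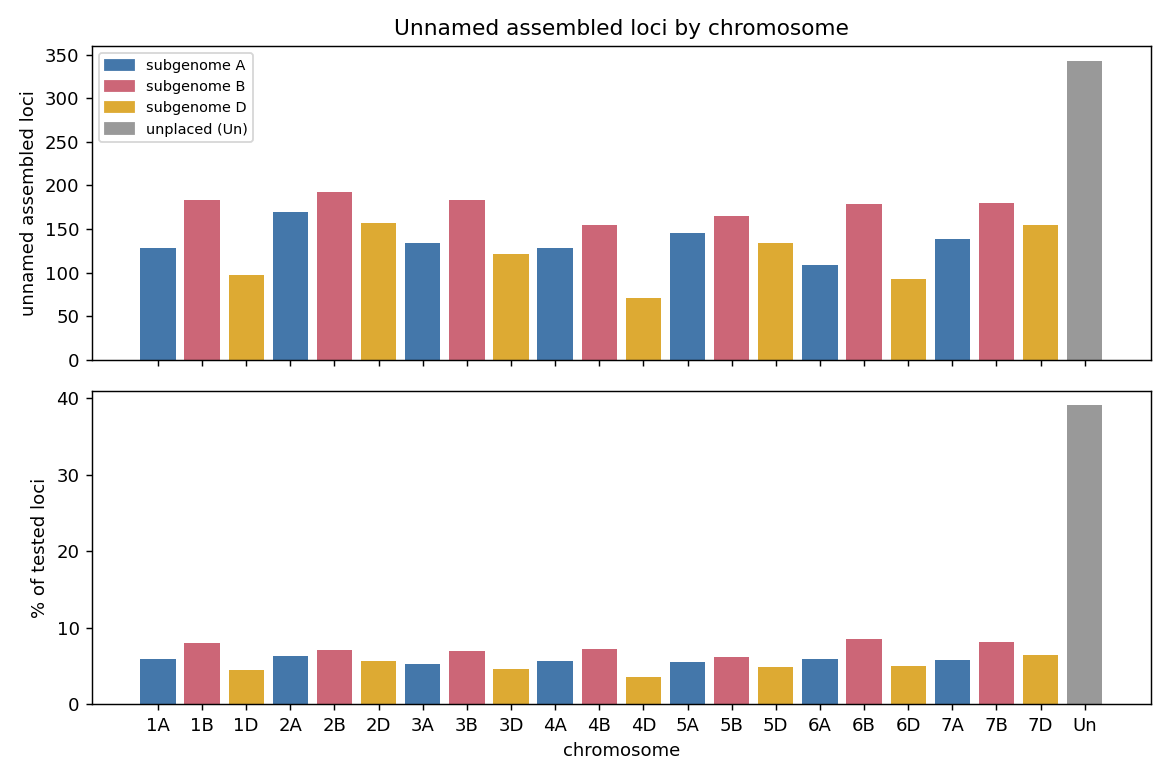
Number of unnamed assembled loci on each chromosome (upper bars) and their percentage of all tested loci of that chromosome (lower bars), coloured by subgenome. Chromosome 4D had 71 and 2B had 192, and the unplaced scaffolds stand apart with 39.1% of tested loci.

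Most unnamed loci lay well away from annotated genes. The median gap to the nearest named locus of the table was 27945 bp. Of the 3358 loci, 904 were over 100 kb away, 1226 between 10 and 100 kb, 830 between 1 and 10 kb, and 351 within 1 kb. Only 47 overlapped a named locus, 38 of them on the opposite strand. Whether counting used the strand is not stated, so reads of these 47 loci and of their partners cannot be told apart. On Un, where scaffolds are joined end to end, gaps carry no meaning across scaffolds.

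Compared with named loci, the unnamed ones were short and often without introns. Their median span was 1840.5 bp, against 3761 bp for assembled loci with a TraesCS name and 3580 bp for TraesCS loci. The exon length that lies behind the values, taken from the ratio of counts to FPKM, had a median of 1079 bp, against 1636 and 1722 bp. Exons covered a median of 82.0% of the span, against 47.8% and 52.3%. In 1343 unnamed loci (40.0%) they covered at least 98% of it, which held for 12.1% of each class of named loci. A single assembled transcript was listed for 3053 of them, and 10 was the highest number.

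**Figure D2:**
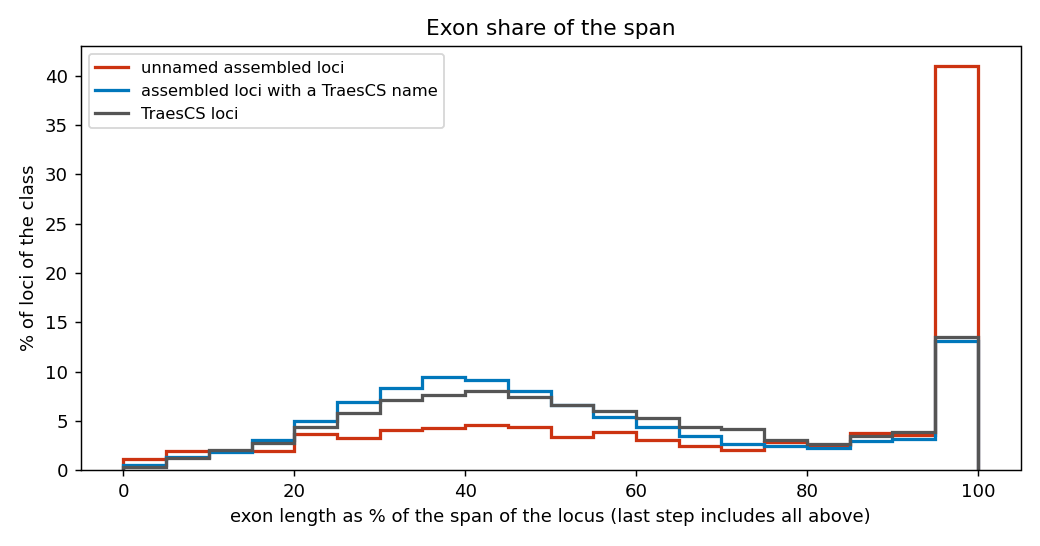
Exon length as a percentage of the span of a locus, from start to end, in steps of 5 points; each line gives the percentage of the loci of 1 class. Unnamed loci pile up in the last step (41.0%), where exon and span are nearly equal. The named classes have a broad rise near 40% and are also highest in the last step (13.1% and 13.5%).

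Strand and structure went along with level. No strand was given for 766 unnamed loci (22.8%), as happens when an assembler sees no splice junction, and this held for 0.302% of assembled loci with a TraesCS name. The 764 strandless loci with an exon length had a median FPKM of 1.56, and 15.3% of them reached 1 FPKM in all 18 libraries. Among stranded loci with an exon share of at least 98% (579 loci) the median was 3.02 and 27.5% were found in all libraries. Those with exon shares of 50 to 98% (960 loci) and below 50% (1051 loci) had medians of 3.57 and 4.53, with 43.4% and 60.0% found throughout.

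The extremes show both ends of the assembly. The longest was MSTRG.52 on 1A (342825 to 392263), with a span of 49439 bp, of which exons made up 5.74%. It was at 2.83 to 24.5 FPKM in every library. MSTRG.18985 on 4B (242700465 to 242747652) was at 2.67 to 6.27 FPKM and MSTRG.4594 on 1D (408201404 to 408246315) at 1.54 to 9.81. The shortest, MSTRG.34831 on 7B (745128373 to 745128572), spans 200 bp, and its highest value of 7.06 FPKM rested on 151 counts. MSTRG.11143 on 3A and MSTRG.21253 on 4D span 202 bp each. MSTRG.34831 and MSTRG.11143 were at 0 in libraries of every variety and MSTRG.21253 in libraries of ZM22 and BN207, where the 3 longest loci were above 0 in every library.

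The median level of an unnamed locus was 3.17 FPKM, below the 5.10 of assembled loci with a TraesCS name and above the 1.21 of TraesCS loci. Of all unnamed loci, 1324 (39.4%) reached 1 FPKM in all 18 libraries, against 64.7% and 20.1% of the other classes. A median of 10 FPKM or more was reached by 440 (13.1%) and one of 100 or more by 31. The 10 highest took between 8.87 and 22.4% of the FPKM of all unnamed loci.

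At the top was MSTRG.12195 on 3A (546413021 to 546414376, minus strand), a locus 1356 bp long with 1 transcript. Its FPKM was 235, 979 and 1749.9 in C72_ZM22, 23.2, 863 and 1413 in W72_ZM22, and 593, 1158 and 1021 in C72_BN207. It was 1984, 234 and 541 in W72_BN207, 2371, 713 and 1347 in C72_BN607, and 899, 1366 and 1103 in W72_BN607. All groups overlapped. The nearest named locus, 2649 bp away on the same strand, was TraesCS3A02G307900, which has no description. The locus MSTRG.13319 on 3B (142233887 to 142235246, minus strand) had almost the same span, 1360 bp, and lay 2871 bp from TraesCS3B02G151000. MSTRG.12195 was 2.07 to 2.92 times as high as MSTRG.13319 in each of the 18 libraries (median 2.46), although both ranged over more than an order of magnitude.

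A second such pair lay close by on the same chromosomes. MSTRG.12199 on 3A (546676108 to 546677391) and MSTRG.13323 on 3B (143072370 to 143073469) both had as their nearest named locus a gene described as Myb-like protein G, TraesCS3A02G308500 and TraesCS3B02G151500. Their ratio ran from 0.310 to 1.25 with a median of 0.949. MSTRG.12199 was at 3.63 to 1568 FPKM over the libraries and MSTRG.13323 at 3.73 to 1256. In W72_ZM22 replicate 1, which had the lowest values of both, they stood at 3.63 and 3.73. The same library was the lowest of the 18 for MSTRG.12195, MSTRG.13319, MSTRG.7344 and MSTRG.33259 as well. The gene names and positions alone do not show whether these loci are copies of each other, since no sequence was compared.

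The other high loci followed another pattern. MSTRG.36526 on 7D (627139207 to 627155430) had a median of 550 FPKM over a span of 16224 bp, of which exons were 8.10%. It was lowest in W72_BN607 replicate 2 at 27.2 FPKM and highest in W72_BN207 replicate 3 at 1704. MSTRG.3920 on 1D (212425218 to 212426098) was at 26.4 to 1467 FPKM, with the highest values in the replicate 1 libraries of C72_ZM22, C72_BN207 and W72_ZM22. Its nearest named locus encodes ribosomal protein S13 of mitochondria. MSTRG.15962 (3D) and MSTRG.31499 (6D) stayed within 188 to 892 and 163 to 589 FPKM. None of the 10 highest loci was called between varieties or treatments. The lowest adjusted p for MSTRG.3920 between BN607 and ZM22 was 0.0968 in edgeR.

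Varieties, averaged over both treatments, differed at many unnamed loci. In BN607 against ZM22, 370 were higher and 380 lower at an adjusted p below 0.05 in edgeR, which is 22.3% of the unnamed loci. Of all tested loci 10.6% were called, 3.84% higher and 6.8% lower. In BN207 against ZM22, 215 were higher and 134 lower, 10.4% beside 4.63% of all tested loci (2.42% higher and 2.21% lower). In BN607 against BN207, 33 were higher and 150 lower, 5.45% beside 1.52% (0.29% higher and 1.23% lower). The median log2 fold change of the unnamed loci was 0.18 in BN207 and 0.12 in BN607 against ZM22, beside 0.07 and 0.06 over all tested loci. The 3 comparisons share their libraries in pairs. Any of them called 887 unnamed loci (26.4%), 11.0% of named loci and 12.0% of all tested loci.

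The library labelled W72_BN207 replicate 1 moved these numbers most where BN207 was compared with BN607. Without it 222 unnamed loci were higher and 236 lower in BN607 than in BN207, 13.6% beside 4.11% of all tested loci (1.84% higher and 2.27% lower). In BN207 against ZM22, 383 were then called (11.4%, beside 4.7%) and in BN607 against ZM22, 755 (22.5%, beside 10.5%). The cell division list lay at 0.905 to 3.19 in ZM22 and 1.81 to 4.42 in BN607. With its level as a covariate 168 unnamed loci were lower in BN607 than in ZM22 in place of 380, and its part in the result was not tested. Of all tested loci 4.96% were then called in either direction, in place of 10.6%. A fit of the C72 and W72 libraries of BN607 and BN207 alone called 0 unnamed loci between these varieties (edgeR), beside 0.00987% of all tested loci. At an unadjusted p below 0.05 there were 773 unnamed loci. DESeq2 and limma on log2(FPKM + 1) were run on all 18 libraries only, where they called 507 and 371, beside 183 in edgeR. Of all tested loci they called 4.67% and 2.69%, beside 1.52% in edgeR. Leaving out other single libraries moved the total by more than 1.5 times in several cases. It was 228, 230 and 230 in BN207 against ZM22 without C72_ZM22 replicate 2 and without C72_BN207 replicate 2 or 3. In BN607 against ZM22 it was 499 and 483 without C72_BN607 replicate 1 or 2. In BN607 against BN207 it was 120, 116 and 112 without C72_BN207 replicate 1 or 2 and without W72_BN207 replicate 2. It was 89, 78, 82, 95 and 86 there without C72_BN607 replicate 1, 2 or 3 and without W72_BN607 replicate 2 or 3. The share of all tested loci moved as well. In BN207 against ZM22 it was 2.82%, 2.77% and 2.75% in those fits, in place of 4.63%. In BN607 against ZM22 it was 6.04% and 5.54%, in place of 10.6%. In BN607 against BN207 it was 0.961% and 0.938% without C72_BN207 replicate 1 or 2. Without C72_BN607 replicate 1, 2 or 3 it was 0.657%, 0.602% and 0.634%, in place of 1.52%.

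**Figure D3:**
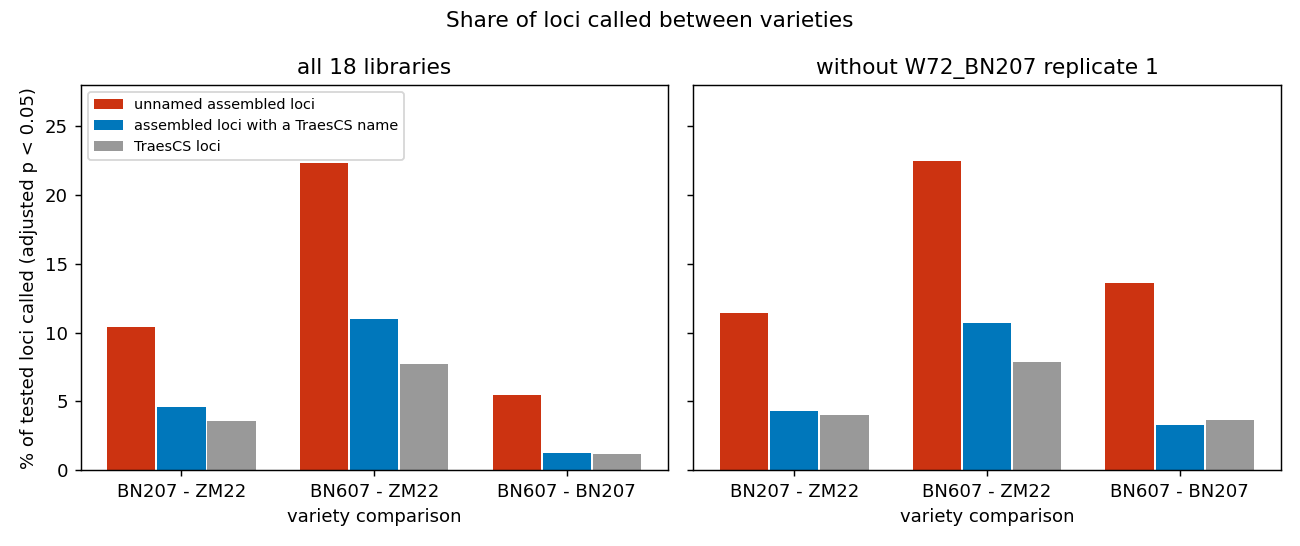
Percentage of tested loci called between varieties (edgeR, adjusted p below 0.05) for unnamed assembled loci, assembled loci with a TraesCS name and TraesCS loci, with all libraries (left) and without W72_BN207 replicate 1 (right). Unnamed loci have the tallest bar in each comparison, up to 22.3% on the left.

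A locus that met the level rule only through 1 variety had to differ between varieties, which applies to unnamed and named loci alike. Among loci that reached 1 FPKM in all 18 libraries, 139 of 1324 unnamed loci (10.5%) were called in BN607 against ZM22, beside 6.75% of 23106 named loci. The shares were 3.47% and 2.30% in BN207 against ZM22, and 1.44% and 0.623% in BN607 against BN207. Loci were also compared within ranges of mean FPKM. For BN607 against ZM22 the unnamed share was 31.2% at 1 to 2 FPKM and 17.0% at 10 or more, where named loci had 8.84% and 10.3%. A locus on in 1 variety only has a low mean over the 18 libraries. The low range thus gathers loci that had to differ and does not remove the effect of the rule. Other ranges are not given.

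Calls were unequal over the genome. On 1B, 46.4% of the unnamed loci were called in at least 1 of the variety comparisons, on 3B 41.5% and on 6B 33.5%, but on 2D 11.5%. By subgenome the share was 24.6% in A, 32.8% in B and 16.3% in D. Loci that overlapped a named locus or lay within 1 kb of one were called in 16.8%, those 1 to 10 kb away in 25.4% and those farther away in 28.6%. These shares were counted for unnamed loci only. Over the whole genome 11.0% of named loci were called. In the first 240 Mb of 1B, 75.3% and 79.3% of named loci were higher in BN207 and BN607 than in ZM22. Of the unnamed loci there 47.5% and 54.2% were higher. Where a named tested locus lay within 10 kb of a called unnamed locus, that neighbour was also called in 33 of 132 cases for BN607 against ZM22, 28 times in the same direction (without W72_BN207 replicate 1). Beside other unnamed loci the neighbour was called in 6.99% of cases.

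Among the largest differences were loci that were silent in 1 variety. Loci named here and below that were off in a variety met the level limit only through libraries of the other varieties. Their adjusted p-values are therefore given as values and not as support for a difference. MSTRG.14028 on 3B (519491419 to 519495961, minus strand) was at 0 in all 6 ZM22 libraries. It was at 10.4, 11.6 and 11.1 FPKM in C72_BN207, 8.99, 9.09 and 11.6 in W72_BN207, 8.44, 10.1 and 9.22 in C72_BN607 and 8.26, 7.77 and 9.66 in W72_BN607. Against a floor of 3 counts in each ZM22 library this was at least 526-fold higher in BN207 (adjusted p = 1.22e-08) and at least 435-fold higher in BN607 (adjusted p = 1.33e-08). The libraries of ZM22 did not overlap with those of the other varieties, while W72 and C72 libraries overlapped in BN207 and in BN607.

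Its neighbour on 3B, MSTRG.14023 (516473199 to 516474951), behaved alike. It was at 0 in all ZM22 libraries, at 6.64 to 8.78 FPKM in BN207 and at 7.39 to 10.9 in BN607, at least 409-fold and 454-fold higher (adjusted p = 2.29e-08 and 2.38e-08). On Un, MSTRG.36998 (248752711 to 248756425) was at 0 in ZM22, at 1.49 to 8.87 in BN207 and at 3.39 to 19.4 in BN607, at least 468-fold higher in BN607 than in ZM22 (adjusted p = 5.4e-05). MSTRG.31640 on 7A (13544355 to 13546814) had 12 counts in 1 ZM22 library and 0 in the others. Its FPKM was 65.5, 46.2 and 23.2 in C72_BN207 and 16.3, 52.4 and 43.5 in W72_BN207, and between 4.76 and 24.3 in BN607 (adjusted p = 7.03e-05 for BN207 and 0.000165 for BN607 against ZM22).

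Other loci were expressed in BN207 alone. They met the level limit only through BN207 libraries, so the rule fixed a difference in advance. MSTRG.33610 on 7B (153177757 to 153182689) was at 6.46, 7.19 and 6.96 FPKM in C72_BN207 and 8.38 and 7.89 in W72_BN207 replicates 2 and 3. It was at 0 in W72_BN207 replicate 1, in all ZM22 libraries and in 5 of 6 BN607 libraries. BN207 was at least 548-fold higher than ZM22 with that library set aside (adjusted p = 0.0144, and 0.000444 without it). MSTRG.34786, also on 7B (720549055 to 720551483), had 7.63 to 21.3 FPKM in the same 5 libraries and 0 in the other 13, and BN207 was at least 562-fold above ZM22 (adjusted p = 0.0307, and 0.000225 without that library). MSTRG.24386 on 5B (460193027 to 460196669) ran from 4.5 to 7.15 FPKM in these 5 and was at 0.0256 in W72_BN207 replicate 1. It was at 0 in all BN607 libraries, at least 473-fold lower than in BN207 (adjusted p = 0.0144). MSTRG.7020 (2B, 919910 to 923506) and MSTRG.37062 (Un) had 10.7 to 58.5 and 8.92 to 26.2 FPKM in the same libraries and at most 0.0508 and 0.0847 in those of ZM22 and BN607. Single libraries decided some of these calls. MSTRG.34786 lost its call in BN207 against ZM22 under 11 of the alternatives, each W72_ZM22 library left out in turn among them (adjusted p from 0.000225 to 0.104). MSTRG.7020 lost its call in BN607 against BN207 in 6 (up to 0.0839), and MSTRG.24386 in 2 (up to 0.0794).

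Expression in BN607 but not BN207 carried the mark of the same library. MSTRG.10473 on 2D (491086156 to 491089590) was at 9.45, 9.07 and 7.88 FPKM in C72_BN607 and 9.02, 9.71 and 10.4 in W72_BN607. It was at 7.29 in W72_BN207 replicate 1 and at 0 in the other 5 BN207 and all 6 ZM22 libraries, at least 594-fold higher in BN607 than in ZM22 (adjusted p = 0.0159, and 4.42e-06 without that library). With the cell division level as a covariate this call was lost (adjusted p = 0.056). MSTRG.2516 on 1B (423936611 to 423941143) had 2.6 to 6.62 FPKM in BN607, 3.18 in W72_BN207 replicate 1 and at most 0.0161 elsewhere. MSTRG.10473 and MSTRG.2516 met the level limit only through BN607 and that library, so the rule fixed a difference in advance. MSTRG.34531 (7B), MSTRG.8897 (2B) and MSTRG.13866 (3B) were shared by ZM22 and BN607. MSTRG.34531 stood at 3.38 to 5.15 FPKM in ZM22 and 5.99 to 10 in BN607, at 4.91 in W72_BN207 replicate 1 and at 0 in the other 5 BN207 libraries (adjusted p = 0.0395 for BN607 against BN207, and 3.62e-08 without that library). The adjusted p for the other pair was 0.04 for MSTRG.8897 and 0.0454 for MSTRG.13866. In BN607 against BN207 these calls were often lost. MSTRG.2516 lost its call under 20 alternatives, MSTRG.8897 under 19, and MSTRG.34531 and MSTRG.13866 under 18 each, where the adjusted p rose to 0.148, 0.177, 0.178 and 0.166. Leaving out any 1 library of ZM22, C72_BN207 or C72_BN607 was enough for all 4, while all 4 had lower p without W72_BN207 replicate 1.

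Other loci were expressed in ZM22, not always in every library, and at or near 0 in 1 or both of the other varieties. MSTRG.3349 near the end of 1B (681479368 to 681483410) was at 12.1, 6.34 and 9.86 FPKM in C72_ZM22 and 12.7, 6.26 and 10.5 in W72_ZM22, and at most 0.0429 in the BN libraries (adjusted p = 0.000126 for BN207 and 0.000177 for BN607 against ZM22). MSTRG.3109 on 1B (616024417 to 616029284) and MSTRG.13959 on 3B (492781141 to 492782098) were far less even within ZM22, at 0.136 to 20.8 and 0.144 to 10.7 FPKM, and at 0 in all BN207 libraries. In BN607 they were at most 0.0347 and 0.0175 FPKM. MSTRG.33681 on 7B (188632004 to 188634810) was at 2.35 to 11.2 FPKM in ZM22 and 0 in BN207, at least 210-fold lower (adjusted p = 0.0147). In BN607 it varied from 0 to 11.3 FPKM.

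Several loci were at 0 in all BN607 libraries. MSTRG.36691 on Un (37371690 to 37373048) was at 6.78 to 21.5 FPKM in ZM22 and at 0 in all BN607 libraries, at least 343-fold lower (adjusted p = 0.00234). In BN207 it ranged from 0.12 in W72_BN207 replicate 1 and 0.309 in replicate 2 to 23.3 in C72_BN207 replicate 1. MSTRG.13634 on 3B (345653693 to 345656573) and MSTRG.3292 on 1B (670175923 to 670178376) were at 0.896 to 6.56 and 2.67 to 5.8 FPKM in ZM22. Both were at 0 in BN607, at least 274-fold and 263-fold lower (adjusted p = 0.00166 and 0.000705). They were also at 0 in W72_BN207 replicate 1 but at 1.22 FPKM or more in the other 5 BN207 libraries. MSTRG.37219 on Un (415586273 to 415587250, no strand) was at 24.8 to 86 FPKM in ZM22 and at 0 in BN607, at least 1724-fold lower (adjusted p = 0.000176). In BN207 it was at 8.96 FPKM or more in the C72 libraries and at 0 in all W72 libraries, W72_BN207 replicate 1 among them.

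This on and off pattern was counted over all unnamed loci. A locus was taken as on in a variety when every library had 1 FPKM or more and off when every library was below 0.1, with W72_BN207 replicate 1 set aside. Of the unnamed loci, 249 (7.42%) were on in 1 variety and off in another, where this held for 1.15% of all tested loci and 0.706% of named loci. Unnamed loci made up 42.7% of all 583 such loci. The most frequent pattern was on in BN607 and off in ZM22, with 102 loci (3.04% of the unnamed, 0.492% of all tested loci). Next came on in BN207 and off in ZM22 with 82 (0.391% of all tested loci) and on in BN207 and off in BN607 with 80 (0.326%). On in BN607 and off in BN207 were 77 (0.338%), on in ZM22 and off in BN607 were 49 (0.231%), and on in ZM22 and off in BN207 were 36 (0.16%). Median levels in the variety where they were on lay between 4.79 and 5.71 FPKM over the 6 patterns.

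With W72_BN207 replicate 1 counted as a BN207 library, 0 loci remained in either pattern between BN207 and BN607. The numbers were 14 for on in ZM22 and off in BN207 (0.0572% of all tested loci) and 44 for on in BN207 and off in ZM22 (0.237%). At 0.5 FPKM or more this library detected 102 of the 102 loci on in BN607 and off in ZM22, and 0 of the 49 on in ZM22 and off in BN607. C72_BN207 replicate 2 detected 45 and 38 of them.

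**Figure D4:**
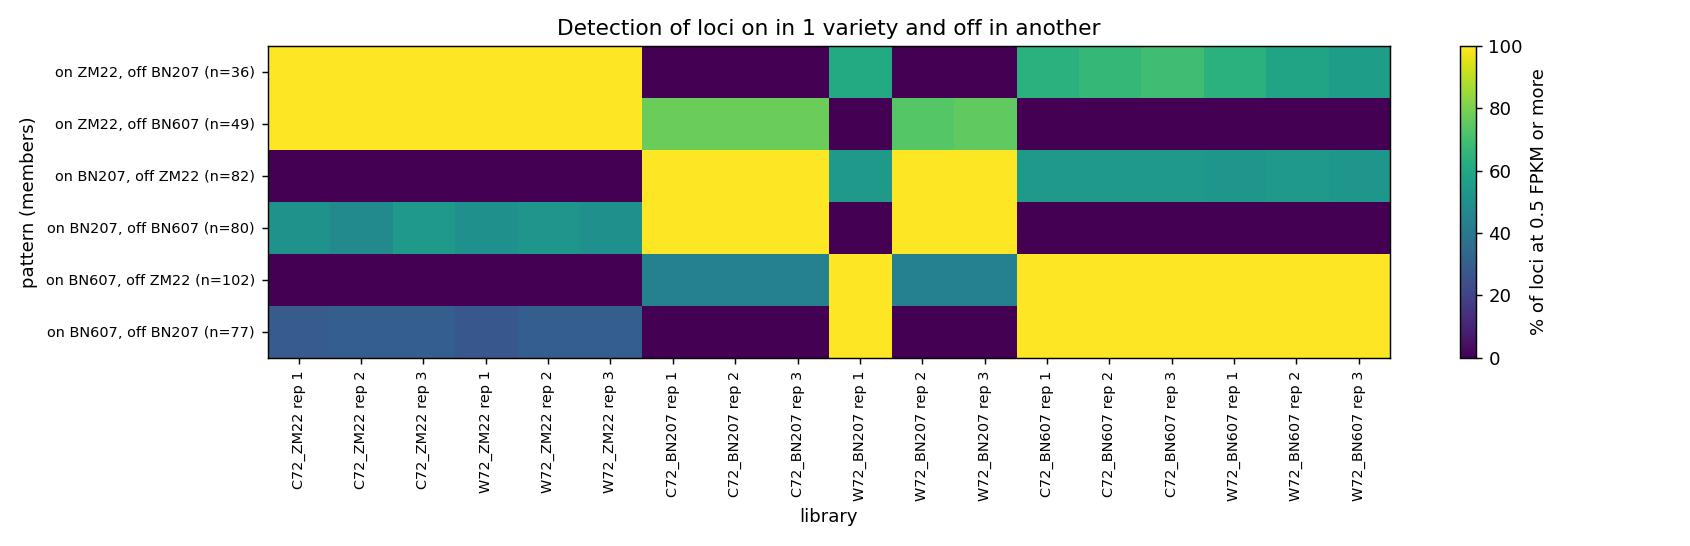
Percentage of the loci of each on and off pattern that reached 0.5 FPKM, by library; rows are patterns with their number of loci, columns the 18 libraries by variety. The column of W72_BN207 replicate 1 matches the BN607 columns, with 0 of 80 loci on in BN207 and off in BN607 and 77 of 77 of the reverse.

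On and off loci were commonest on 1B (33, or 18.0% of its unnamed loci), 3B (25, 13.7%), 5B (18, 10.9%), 6B (19, 10.6%) and 7B (18, 10.0%), and rarest on 2D and 7D with 2 each. By structure they made up 7.33% of the strandless, 3.63% of the stranded and nearly intronless, 9.69% of those with 50 to 98% exon and 7.52% of those below 50%. Shares by chromosome and by structure are given for unnamed loci only, so they show nothing particular to unnamed loci. Over the whole genome 0.706% of named loci were on and off. Differences between chromosomes and between structures were not tested. None of the 47 loci that overlap a named locus were on and off. Named loci were on and off on 1B and 3B too. Off in ZM22 alone were 57 of 2117 named and 12 of 183 unnamed loci on 1B. On 3B the numbers were 13 of 2465 and 7 of 183.

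Positions of calls were then examined in windows of 10 Mb, a step chosen after the values were seen, so that no test is given. Of 1304 windows with at least 10 tested loci, 32 had 30% or more of all their loci called in 1 direction between BN207 and ZM22, with W72_BN207 replicate 1 left out. In 23 of these on 1B and 2 on 1D the loci were higher in BN207. For BN607 against ZM22 the same held for 34 windows, 23 on 1B and 2 on 1D, again with the loci higher in BN607. Between BN607 and BN207 there were 6 windows, none of them on 1B or 1D.

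The 1B windows ran from the start of the chromosome over 240 Mb with a single gap. Of 59 unnamed loci there, 28 (47.5%) were higher in BN207 and 32 (54.2%) higher in BN607 than in ZM22, with median log2 fold changes of 2.58 and 2.62. Of 571 named loci in the same stretch, 430 (75.3%) and 453 (79.3%) were higher, with medians of 3.27 and 3.39. In the rest of 1B, 6 and 13 of 124 unnamed loci were higher, and 1.29% and 5.17% of named loci. Between BN607 and BN207, 1 of the 59 was higher and 5 were lower. Without W72_BN207 replicate 1 the first stretch gave 27 and 32 unnamed loci higher than in ZM22.

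At the end of 1D, 11 unnamed loci lay in the last 2 windows, of which 8 were higher in BN207 and 9 in BN607 than in ZM22, beside 60 and 60 of 104 named loci. A run of 7 unnamed loci stood between 488962044 and 489796818. MSTRG.5025, at 0 in all ZM22 libraries, was at 14.8, 7.61 and 4.28 FPKM in C72_BN207, 9.81, 7.93 and 10.9 in W72_BN207, 9.22, 11.4 and 7.37 in C72_BN607 and 11.1, 5.91 and 8.05 in W72_BN607. It was at least 285-fold higher in BN207 and 277-fold higher in BN607. MSTRG.5021, MSTRG.5024, MSTRG.5026, MSTRG.5027 and MSTRG.5031 were likewise at 0.088 FPKM or less in ZM22 and at 0.69 or more in the other varieties. MSTRG.5029 in their midst was on in all libraries, at 2.02 to 3.73 FPKM in ZM22 and 3.19 to 6.57 in BN607. MSTRG.4988, the first of the 11, was at 79.9 to 185 FPKM in all varieties and was not called between varieties.

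Outside these 2 stretches, 5.44% of the unnamed loci were higher and 3.89% lower in BN207 than in ZM22, beside 1.12% and 2.10% of the named loci. In BN607 against ZM22 the values were 10.0% and 11.3%, beside 2.28% and 6.55%. In each direction the unnamed share was the larger of the pair.

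Smaller groups lay on 3B, 6B and 7D, among other windows. All 5 unnamed loci between 515146353 and 519495961, MSTRG.14018, MSTRG.14020, MSTRG.14023, MSTRG.14025 and MSTRG.14028, were at 0.0858 FPKM or less in ZM22 and between 1.56 and 11.6 in BN207 and BN607. All 5 were called in both varieties against ZM22, as were 7 and 9 of the 19 named loci of that window. On 6B, 3 of 3 unnamed loci of the window from 420 to 430 Mb were called higher in both. So were 4 and 6 of its 10 named loci in BN207 and BN607. In the window from 630 to 640 Mb of 7D, 27 and 32 of 46 tested loci were higher in BN207 and BN607 than in ZM22. These numbers leave out W72_BN207 replicate 1, and 1 of the 2 unnamed loci there was among the called in each comparison.

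A row of 9 unnamed loci stood near the start of 3B, between 25898423 and 26381391, with 2 named tested loci among them. MSTRG.13068, the highest, was at 2.58 to 22.4 FPKM in BN607 and at 5.65 in W72_BN207 replicate 1. It was at 0 in the other 5 BN207 libraries and at most 0.0687 in ZM22. MSTRG.13060 and MSTRG.13067 were at 1.84 to 7.5 and 0.358 to 12.2 FPKM in BN607. In ZM22 all 9 were at 0.134 FPKM or less. They met the level limit only through other libraries, so their calls against ZM22 are no support for a difference. In BN607 against ZM22, 8 of the 9 were called. MSTRG.13065 was not, and it was at 0 in 4 of 6 BN607 libraries. Of the 9, MSTRG.13061, MSTRG.13062, MSTRG.13064 and MSTRG.13066 had exons over the whole span.

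**Figure D5:**
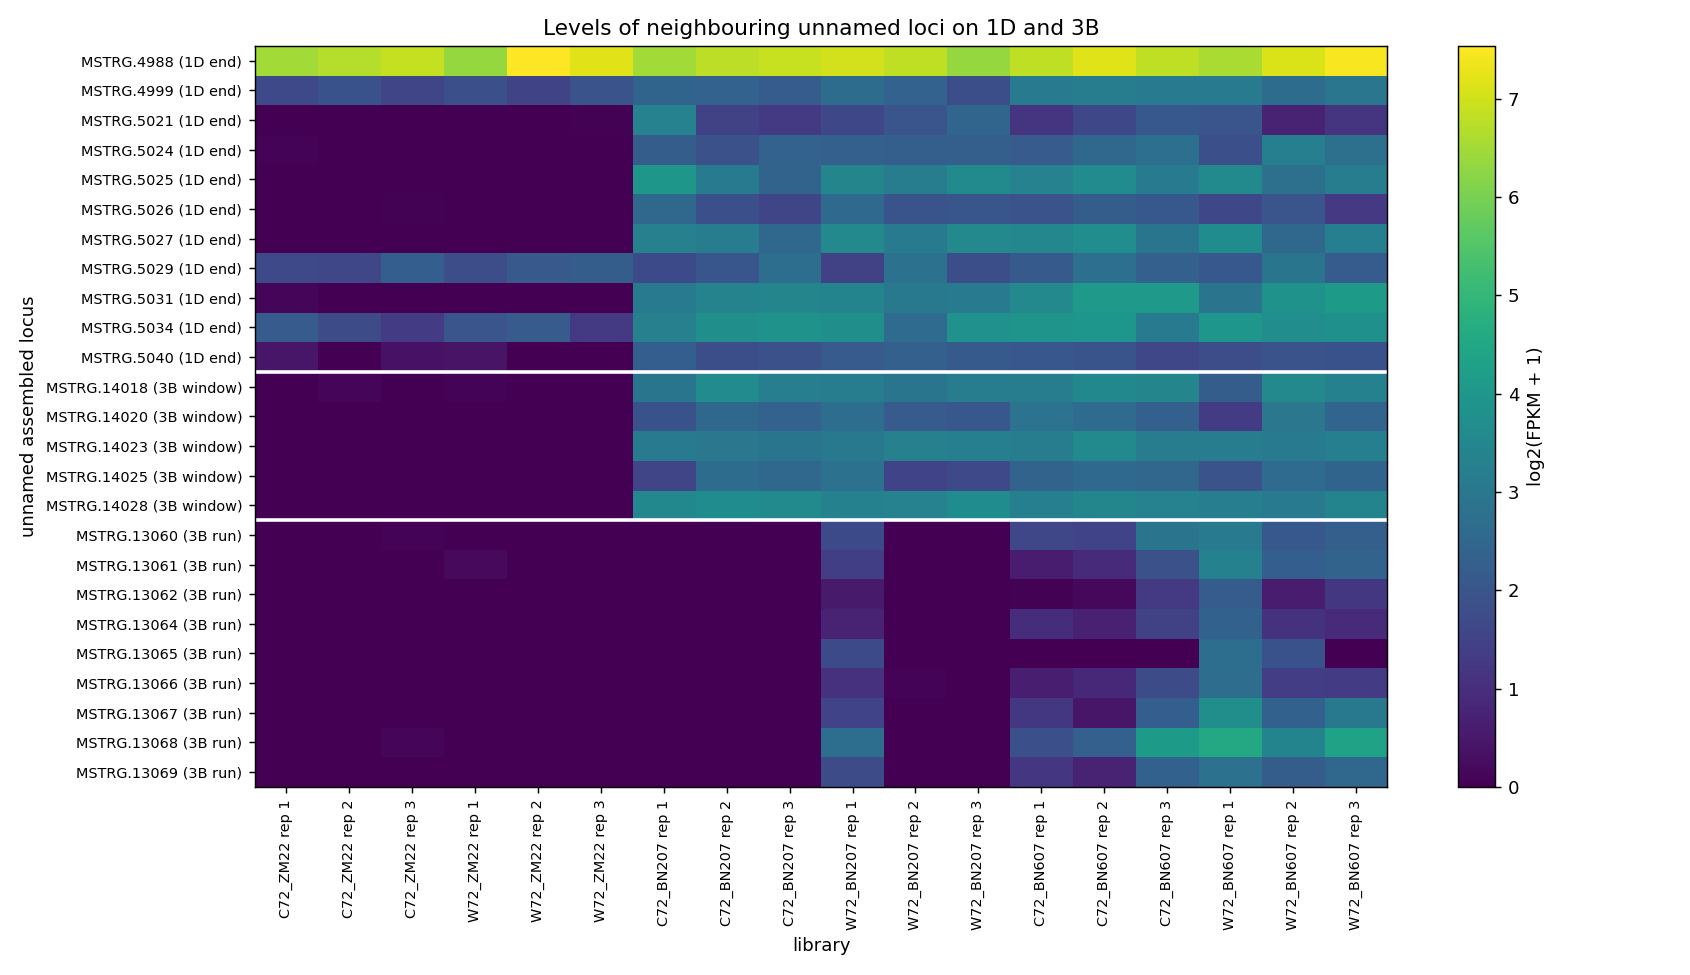
Level, as log2(FPKM + 1) on the colour scale, of 25 unnamed loci (rows, in chromosome order) in the 18 libraries (columns, by variety): 11 at the end of 1D, 5 in a window on 3B and 9 in a run near the start of 3B. The first groups are dark in ZM22 alone, except MSTRG.4988, MSTRG.4999, MSTRG.5029 and MSTRG.5034, and the last is lit in BN607 and in W72_BN207 replicate 1.

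Runs of unnamed loci were not all of this kind. The longest held 16 loci in the first 392263 bp of 1A, among 38 named loci, with a median span of 10258.5 bp of which exons made up 6.17%. On Un, the most populated sequence, the densest run held 8 loci between 447607959 and 448432784, MSTRG.37283 to MSTRG.37290, whose exon lengths equalled 99.9% or more of their span. None was called between varieties. MSTRG.37283 ranged from 0.802 to 31.7 FPKM in ZM22 and from 0.0488 to 4.14 in BN607, and MSTRG.37290 from 1.65 to 9.95 and 0.912 to 9.35. A run of 8 on 5D, between 18662644 and 18991881, had no call either, and 3 of its loci spanned 16175 to 35993 bp with at most 2.97% exon.

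Libraries were also compared over all unnamed loci, by the same FPKM values that the level rule used. For 16 of 18 libraries the most similar other library over the unnamed loci was one of the same variety, beside 12 of 18 over the named loci. The exceptions were W72_BN207 replicate 1, nearest to C72_BN607 replicate 2, and W72_BN607 replicate 1. Over an average unnamed locus, 31.0% of the variance of log2(FPKM + 1) lay between varieties and 1.56% between treatments (medians), beside 20.7% and 1.52% for assembled loci with a TraesCS name. Loci on in 1 variety and off in another are included, 7.42% of the unnamed and 0.706% of the named loci (W72_BN207 replicate 1 set aside). They met the level limit only through some varieties. The values are thus a description and no support for a difference between unnamed and named loci.

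Waterlogging changed few unnamed loci by the edgeR test. In ZM22, 1 unnamed locus was lower in W72 than in C72, of 3 such loci among all tested (0.00592%). No unnamed locus passed in BN207 or BN607, where 0 of all tested loci passed. For the average over varieties 1 unnamed locus passed (0.00197% of all tested loci), the same as in ZM22. This averaged call (adjusted p = 0.016 for MSTRG.30200) was lost under 15 of 27 alternatives. Among them was leaving out C72_ZM22 replicate 2 (0.0592), C72_BN207 replicate 1, 2 or 3 (0.0625, 0.0508 and 0.0583) or C72_BN607 replicate 2 or 3 (0.0601 and 0.0511). It was also lost without W72_ZM22 replicate 2 or 3 (0.0979 and 0.0578), W72_BN207 replicate 2 or 3 (0.0679 and 0.0691) or W72_BN607 replicate 3 (0.0647). At an unadjusted p below 0.05 there were 73 unnamed loci in ZM22, 215 in BN207 and 123 in BN607. That is 2.17%, 6.40% and 3.66%, beside 1.09%, 1.89% and 2.12% of all tested loci. Without W72_BN207 replicate 1 the BN207 number was 104, or 3.10% beside 3.28%. DESeq2 called 44, 93 and 15 unnamed loci in ZM22, BN207 and BN607 at an adjusted p below 0.05, beside 0.284%, 0.541% and 0.0671% of all tested loci. The BN207 number includes W72_BN207 replicate 1, without which DESeq2 was not run. In limma on log2(FPKM + 1) none passed in any variety.

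By the thresholds of the study, an unadjusted p below 0.05 and a log2 fold change beyond 1, there were 68 unnamed loci in ZM22 (20 higher and 48 lower, beside 0.813% of all tested loci, 0.221% higher and 0.592% lower). There were 208 in BN207 (191 higher and 17 lower, beside 1.61%, 1.27% higher and 0.338% lower) and 90 in BN607 (71 higher and 19 lower, beside 1.32%, 0.934% higher and 0.387% lower). In BN207 the balance turned without W72_BN207 replicate 1, to 34 higher and 62 lower, beside 0.614% and 2.17% of all tested loci. MSTRG.31678 on 7A (24427319 to 24429848) and MSTRG.8897 show how. MSTRG.31678 was at 0 in C72_BN207 and at 4.31, 0 and 0.0291 FPKM in W72_BN207, and MSTRG.8897 was at 0 in C72_BN207 and at 7.26, 0.0294 and 0 in W72_BN207. In both the high value was that of replicate 1, and BN607 was at 3.82 FPKM or more in each library.

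The called locus was MSTRG.30200 on 6B (715743060 to 715751618), 6479 bp from an F-box gene on the same strand. In ZM22 it was at 0.0625, 0.0429 and 0.0345 FPKM in C72, from 15, 12 and 10 counts, and at 0 in all 3 W72 libraries. This was at least 3.30-fold lower against a floor of 3 counts a library (adjusted p = 0.00134). It was at 6.43 to 9.56 FPKM in BN207 and 7.2 to 10.7 in BN607 in either treatment, with no call there. It thus met the level limit only through BN207 and BN607 and was below 0.1 FPKM, the limit used here for off, in all 6 ZM22 libraries. The ZM22 call compares 10 to 15 counts with 0 in a variety where the locus was off, and it is given as a value, not as a response of an expressed locus. Likewise, the difference from ZM22 in the fitted change passed for BN207 (adjusted p = 0.00598) and for BN607 (adjusted p = 0.00747), each beside 0.00395% of all tested loci called for such a difference. Between BN607 and BN207 the number was 0 among all tested loci, with 155 unnamed loci at an unadjusted p below 0.05, 57 called by DESeq2 and 0 by limma on log2(FPKM + 1). All of these calls were lost when the counts were divided by 4, at which scale the ZM22 values came to a few counts. Over the alternatives the adjusted p in ZM22 ran from 0.000401 to 1, with 5 of 28 losing the call. Without W72_ZM22 replicate 2 the difference of the response between BN607 and ZM22 was not called (adjusted p = 0.0578).

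The loci with the next lowest p did not pass in edgeR, although DESeq2 called several of them. In ZM22, MSTRG.13380 on 3B (168262686 to 168263611) was at 0 in C72 and at 0, 1.3 and 6.6 FPKM in W72. MSTRG.25544 on 5D (85923966 to 85924441) was at 0 in C72 and at 0.452, 1.34 and 0.0792 in W72 (adjusted p = 1 for both in edgeR, and 1.23e-06 and 0.00343 in DESeq2). Without W72_ZM22 replicate 1, at 0 itself, MSTRG.13380 also passed in edgeR (adjusted p = 0.0258). In BN607 MSTRG.25544 was at 0.254, 0.26 and 0.074 FPKM in C72 and 4.13, 0.656 and 7.04 in W72, while in BN207 the treatments overlapped. In BN207, MSTRG.37219 was at 64.5, 8.96 and 14.2 FPKM in C72 and at 0 in all W72 libraries, at least 987-fold lower. The W72 libraries include replicate 1, which carried the on and off pattern of BN607, where MSTRG.37219 was at 0 throughout. With that library set aside the W72 values rest on replicates 2 and 3, and DESeq2 and limma were not run without it. The adjusted p of this difference was 1 in edgeR, 1.32e-16 in DESeq2, 0.000107 in limma on log2(FPKM + 0.1) and 0.00265 in edgeR with the cell division level as a covariate. The W72_BN207 libraries lay at 1.84 to 2.89 on that list and the C72_BN207 libraries at 1.16 to 3.77, and its part in the result was not tested. The groups did not overlap in BN207, while in ZM22 both treatments were at 24.8 FPKM or more and overlapped.

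In BN607, MSTRG.17321 on 4A (275324918 to 275328458) was at 0.00488, 0 and 0.0199 FPKM in C72 and 0.633, 0.656 and 0.866 in W72, and MSTRG.19033 on 4B (310123801 to 310125782) at 0.0961, 0 and 0.154 and at 4.43, 0.889 and 4.05. MSTRG.29871 on 6B (623359247 to 623360237) was steadier, at 3.3, 2.15 and 3.3 FPKM in C72 and 4.35, 4.98 and 6.95 in W72, a log2 fold change of 1.08 ± 0.28 (SE, n = 3 libraries a group, adjusted p = 1 in edgeR). For all 3 the treatments did not overlap in BN607. In edgeR none of the 3 was called, while DESeq2 called MSTRG.17321 (adjusted p = 0.000198) and MSTRG.19033 (adjusted p = 0.00106). Averaged over the varieties, MSTRG.17299 on 4A (226869823 to 226881736) had a log2 fold change of -3.68 ± 0.87 (SE, adjusted p = 1 in edgeR and 0.000591 in DESeq2). Its FPKM was 0, 4.72 and 4.28 in C72_ZM22 and 0, 0.128 and 0.112 in W72_ZM22, and 9.92, 2.51 and 1.8 in C72_BN607 and 0.274, 0.114 and 0.258 in W72_BN607. In BN207 it was 1.95, 3.23 and 1.87 in C72 and 1.45, 0.759 and 0.199 in W72. The treatments did not overlap in BN207 or BN607 and overlapped in ZM22.

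The text of the study names 1 of the unnamed loci, MSTRG.18850 on 4B (139472188 to 139474223). It was at 3.21, 1.4 and 7.65 FPKM in C72_ZM22 and 0.198, 1.05 and 0.661 in W72_ZM22, which did not overlap. In BN207 it was at 0.208, 5.91 and 0.588 in C72 and 0.11, 0.877 and 0.163 in W72, which overlapped. In BN607 it was at 1.22, 1.3 and 0.796 in C72 and 0.0365, 0.0829 and 0.55 in W72, which did not overlap. In edgeR the adjusted p was 1 in each variety, with an unadjusted p of 0.0318 for ZM22, 0.0562 for BN207 and 0.0706 for BN607 and log2 fold changes of -2.78 ± 1.17, -2.40 ± 1.15 and -2.25 ± 1.15 (SE, n = 3 libraries a group). An unadjusted p below 0.05 with a log2 fold change beyond 1 was met in ZM22 by edgeR. DESeq2 gave unadjusted p of 0.00873, 0.0262 and 0.0344, and adjusted p of 1 in each variety. Averaged over varieties MSTRG.18850 was lower in W72 by DESeq2 (adjusted p = 0.0161) and was not called by edgeR (log2 fold change -2.48 ± 0.67, adjusted p = 1.00).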

How the data were processed

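Poly(A) RNA of germinating seeds was sequenced on an Illumina NovaSeq. By the methods of the study, reads were cleaned with cutadapt and mapped with HISAT on the IWGSC RefSeq v1.0 wheat genome, and StringTie built and merged the transcripts. No version of these tools was given. The table deposited by the authors holds an FPKM value and an estimated count for each locus and library. The counts are whole numbers that follow coverage, so they are not single reads. Neither strand use in counting nor sequencing batches were stated.

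Exon length was derived here from the ratio of count to FPKM, scaled on strandless loci. Counts of 50656 loci with FPKM of at least 1 in at least 3 libraries entered edgeR 4.0.16 in R 4.3.3 (TMM, quasi-likelihood test, 1 mean per group, all 18 libraries). Calls were made at an adjusted p below 0.05 (Benjamini-Hochberg over all tested loci). Folds against groups at 0 used a floor of 3 counts per library, which covers counting error only. Alternatives were DESeq2 1.42.0, limma 3.58.1, other filters and thresholds, a replicate block, a covariate and leaving out each library.

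The members, lists and comparisons were chosen with earlier results of these data known. Named are the 10 highest loci, the 4 largest non-overlapping rises and falls per variety comparison, the lowest p per treatment comparison, the 3 longest and 3 shortest, the locus named in the study, and the densest run on the most populated sequence. Other runs and windows, the pairs on 3A and 3B, and MSTRG.31678 were chosen after their values were seen. No library held the same counts as another of its group.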

Additional observations from a re-analysis of the deposited data

Results flagged for a closer look

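The fitted change of MSTRG.30200 under waterlogging differed between varieties by a test of the difference itself. The locus was below 0.1 FPKM in all 6 ZM22 libraries and met the level limit only through BN207 and BN607, so the test sets a few counts in ZM22 against an expressed locus and shows no response of it. The fitted log2 change was 6.81 higher in BN207 than in ZM22 (adjusted p = 0.00598, edgeR) and 6.69 higher in BN607 than in ZM22 (adjusted p = 0.00747). These sizes depend on how edgeR treats groups at 0 and are no bound. All 3 W72_ZM22 libraries were at 0 and the 3 C72_ZM22 libraries had 10 to 15 counts, while each BN207 and BN607 library had over 1000. Over 28 alternatives both kept the call in 23 and 22, with adjusted p from 0.000405 to 1 and from 0.000929 to 1.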

How the results depend on the processing

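Counts of unnamed loci called between varieties depended on the tool and the libraries. DESeq2 called 361 higher and 303 lower in BN207 than in ZM22, 587 lower in BN607 than in ZM22, and 202 higher and 305 lower in BN607 than in BN207. Of all tested loci DESeq2 called 10.4%, 20% and 4.67% in these comparisons in either direction, beside 4.63%, 10.6% and 1.52% in edgeR. For waterlogging it called 44 in ZM22, 93 in BN207, 15 in BN607 and 61 on average, and for the differences of the response 79 (BN207 and ZM22), 34 (BN607 and ZM22) and 57 (BN607 and BN207). Of all tested loci these calls were 0.284%, 0.541%, 0.0671% and 0.43%, and 0.458%, 0.215% and 0.322%. DESeq2 and limma were not run without W72_BN207 replicate 1. With limma on log2(FPKM + 1) 234 were lower in BN207 than in ZM22 and 206 higher in BN607 than in BN207. With 0.1 in place of 1 these were 227 and 209. Of all tested loci 6.02% and 2.69% were called in these comparisons with the first setting and 5.96% and 2.71% with the second, in either direction. The first limma setting called 0 in ZM22, 0 on average and 0 for the responses of BN207 and of BN607 against ZM22, and turned the sign for MSTRG.30200 in BN607 against ZM22 (-0.23). The second called 0 in ZM22, 1 in BN207, 0 for BN607 against ZM22 and 1 for BN607 against BN207. With the counts divided by 4, 56 were higher in BN607 than in BN207, where 1.76% of all tested loci were called in either direction. All calls for waterlogging (0 in ZM22, 0 on average) and for the responses of BN207 and BN607 against ZM22 (0 and 0) were then lost. With the cell division level as a covariate 168 were lower in BN607 than in ZM22, 1 responded in BN207 and 2 differed in response between BN207 and ZM22. Of all tested loci 4.96%, 0.00197% and 0.00592% were called in these comparisons, in either direction. With only the groups compared, 83 were lower in BN207 than in ZM22 and 0 higher and 0 lower in BN607 than in BN207, and no call was left for ZM22 (0) or for the responses of BN207 (0) and BN607 (0) against ZM22. Of all tested loci 2.69% and 0.00987% were called in these variety comparisons, in either direction. By the thresholds of the study the numbers were 68 in ZM22, 208 in BN207, 90 in BN607 and 155 on average. They were 381 higher and 376 lower in BN207 than in ZM22, 608 lower in BN607 than in ZM22, 269 higher and 382 lower in BN607 than in BN207, and 156, 107 and 151 for the responses (BN207 and ZM22, BN607 and ZM22, BN607 and BN207). Shares over all tested loci are not given for the average, variety and response counts by these thresholds, which are no result about the unnamed loci. The cause of these changes was not tested. DESeq2 size factors, no filter and FPKM of at least 1 in 6 libraries moved no count by more than 1.5 times.

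Leaving out 1 library gave 148 to 229 higher and 64 to 193 lower for BN207 against ZM22, 266 to 494 and 210 to 485 for BN607 against ZM22, and 5 to 222 and 73 to 236 for BN607 against BN207. For waterlogging it gave 1 to 3 in ZM22, 0 in BN207, 0 in BN607 and 0 to 2 on average, and for the responses 1 to 3 (BN207 and ZM22), 0 to 3 (BN607 and ZM22) and 0. The share of all tested loci moved with the library too, for example to 0.602% in BN607 against BN207 without C72_BN607 replicate 2. The replicate block left 0 calls in ZM22, 0 on average, and 0 for the responses of BN207 and BN607 against ZM22. Replicate numbers do not pair the libraries: 3 of 9 same-numbered pairs of C72 and W72 libraries correlated above 0.1 (-0.51 to 0.58).

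Only 1324 unnamed loci reached 1 FPKM in all 18 libraries. With off taken as 0 in every library, 13 were on in ZM22 and off in BN207, 13 on in ZM22 and off in BN607, 40 and 33 on in BN207 and off in ZM22 and in BN607, and 43 and 32 on in BN607 and off in ZM22 and in BN207. Of all tested loci these patterns held for 0.0513%, 0.0671%, 0.166%, 0.128%, 0.166% and 0.124%, in the same order. Keeping W72_BN207 replicate 1 was a step chosen after seeing the data. With it 14 were on in ZM22 and off in BN207 and 44 on in BN207 and off in ZM22, beside 0.0572% and 0.237% of all tested loci. In either pattern between BN207 and BN607 there were 0, as among all tested loci. Over 38 named results and 28 alternatives, 909 of 1048 values kept direction and side of the threshold, 127 fell below it, 11 rose above it and 1 turned. With 3 libraries a group and counts estimated from coverage, a difference in a locus of few counts may not be detectable at this depth.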
